A study of Mus musculus with 2 samples.

Results

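The 10 genes described here are markers of the intestinal lining, some of its absorptive cells and some of intestinal identity more widely. All were followed in mouse teratomas, mixed-tissue tumours that grow from transplanted pluripotent stem cells. They are Cdx1, Cdx2, Vil1, Cdh17, Lgals4, Fabp1, Fabp2, Mttp, Guca2a and Prap1, a list of known markers that was taken as a whole. Every probe set (the group of oligonucleotides on the array that together report a transcript) annotated to a single symbol among these 10 was used. This gave 14 of the 22690 probe sets on the array, and the 10 genes are among 12393 that could be read by such probe sets.

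The 2 groups shared the host, the site and the time, and differed in the injected cells. In the B6 ES group, embryonic stem (ES) cells of the C57BL/6 (B6) mouse strain were injected. In the EiPS group, EiPS cells were injected, an induced pluripotent stem cell line that the labels assign to the same strain, and the series' design text describes its tumours as regressing. In both groups the cells were placed under the skin of male B6 mice, the tumours were taken at week 6, and RNA of 2 tumours was pooled for a single Affymetrix array. The labels give neither the age of the hosts nor how the 2 pooled tumours were spread over hosts. With 1 array per group no difference below has a replicate check and no test could be made: each value compares these 2 pools. In pooled bulk tissue, fewer cells of a type and less RNA per cell cannot be told apart.

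Enterocytes are the columnar cells that absorb nutrients across a brush border, a dense carpet of microvilli built on bundled actin. Their identity is set by the caudal-type homeobox factors Cdx1 and Cdx2 together with hepatocyte nuclear factors and GATA factors. They take up dietary lipid, carry it through the cytoplasm on small fatty acid binding proteins and export it as chylomicrons, particles whose assembly needs the microsomal triglyceride transfer protein. In a teratoma such cells arise in glands of endodermal origin, beside gastric, respiratory and other epithelia. Several of the 10 genes are also active elsewhere: Fabp1 and Mttp in liver and yolk sac, Vil1 in kidney and yolk sac, Cdx2 in trophoblast and Prap1 in uterus.

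The genes did not move together between the pools. The cytoskeletal and surface genes Vil1, Cdh17 and Lgals4 had signals from 2.01-fold to 2.27-fold higher in the EiPS pool, and the secreted-protein genes Guca2a and Prap1 signals 4.12-fold and 10.6-fold higher. Of the lipid-handling genes, Fabp2 was 2.73-fold lower and Fabp1 1.05-fold lower. Mttp was 1.57-fold lower by its brightest probe set and 1.39-fold higher by its other probe set. Cdx2 was 1.41-fold higher, and Cdx1 was too weak on both arrays to be compared. The differences of the 9 measured genes thus spanned 4.86 on the log2 scale, from -1.45 to 3.41.

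The genomic sequence just upstream of 4 of the genes is shown first, since these are the members with the largest difference in each direction (Prap1 and Guca2a higher, Fabp2 lower) and Fabp1, the paralog of Fabp2, which differed little. The sequences come from the RefSeq promoter table of build GRCm38.p6, in which 8 of the 10 genes were matched by symbol, and Cdh17 and Cdx1 were not. Each is the 250 bases before the transcript's start, 5′ to 3′ on the gene's strand, at chr7:140093146-140093395 for Prap1, chr4:119637482-119637731 for Guca2a, chr6:71199629-71199878 for Fabp1 and chr3:122894822-122895071 for Fabp2, all on the + strand. Capitals mark exact matches, on either strand, to the letters TTTATG (a Cdx-type core), GTTAAT (the core of an Hnf1 site), CAAAGTCC (an Hnf4-type site) or AGATAA (the core site of the GATA factors).
Prap1: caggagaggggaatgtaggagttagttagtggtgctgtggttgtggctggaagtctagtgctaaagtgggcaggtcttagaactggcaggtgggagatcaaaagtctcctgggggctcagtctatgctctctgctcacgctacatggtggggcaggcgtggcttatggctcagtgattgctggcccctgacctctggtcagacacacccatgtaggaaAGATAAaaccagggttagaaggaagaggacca
Guca2a: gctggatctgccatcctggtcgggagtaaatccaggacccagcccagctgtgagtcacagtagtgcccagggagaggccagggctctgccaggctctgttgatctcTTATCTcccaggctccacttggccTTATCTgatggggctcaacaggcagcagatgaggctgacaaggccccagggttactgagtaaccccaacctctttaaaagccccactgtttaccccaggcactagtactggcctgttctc
Fabp1: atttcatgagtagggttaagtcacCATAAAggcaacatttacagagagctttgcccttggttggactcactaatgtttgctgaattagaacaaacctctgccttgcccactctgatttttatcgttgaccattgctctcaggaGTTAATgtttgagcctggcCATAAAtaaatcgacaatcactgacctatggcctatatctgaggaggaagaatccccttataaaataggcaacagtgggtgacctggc
Fabp2: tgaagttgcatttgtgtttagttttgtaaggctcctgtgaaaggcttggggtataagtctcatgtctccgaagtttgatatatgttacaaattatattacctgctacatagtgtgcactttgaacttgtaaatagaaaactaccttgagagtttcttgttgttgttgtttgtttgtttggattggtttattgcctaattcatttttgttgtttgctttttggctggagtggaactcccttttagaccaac

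Among these promoters, those of the 2 genes with the largest higher signals, Prap1 and Guca2a, both held AGATAA, at -32 to -27 from the start in Prap1 and, on the other strand, at -144 to -139 and -120 to -115 in Guca2a. The same letters occurred in 9.99% of all 32851 promoter windows of this length in the table, and in no other of the 8 member promoters. TTTATG was found on the other strand of Fabp1, at -226 to -221 and at -88 to -83, and in 10.8% of all windows. GTTAAT stood in Fabp1 at -107 to -102 and in Cdx2 at -30 to -25, and in 6.43% of all windows. CAAAGTCC, present in 1.20% of windows, was in none of the 8. The Fabp2, Vil1, Lgals4 and Mttp windows held none of the 4 motifs, and no matches overlapped. These are matches of letters in a short window, and no binding was measured.

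The array signals are MAS5 values in linear units, which the deposited processing had scaled to the same overall level. The median signal over all probe sets was 179 for B6 ES and 196 for EiPS. A floor of 25.8 separated measurable signals from background. It is the 90th percentile of 71 probe sets for olfactory, vomeronasal and taste receptors, which are held to be silent in these tissues, and 79.1% (B6 ES) and 81.9% (EiPS) of probe sets lay above it. Differences are on the log2 scale, EiPS minus B6 ES, so that 1 is a 2-fold higher and -1 a 2-fold lower signal. A gene with several probe sets takes the brightest. Where a signal lies under the floor on 1 array, the fold is a bound and is written "at least". The only spread that 1 array per group offers is that between probe sets of the same gene, whose log2 differences had an SD of 0.40 over 3805 genes. It was 0.49 at mean signals under 100, 0.41 from 100 to 1000 and 0.29 above 1000, and it holds no variation between tumours, arrays or labelling.

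**Figure D1:**
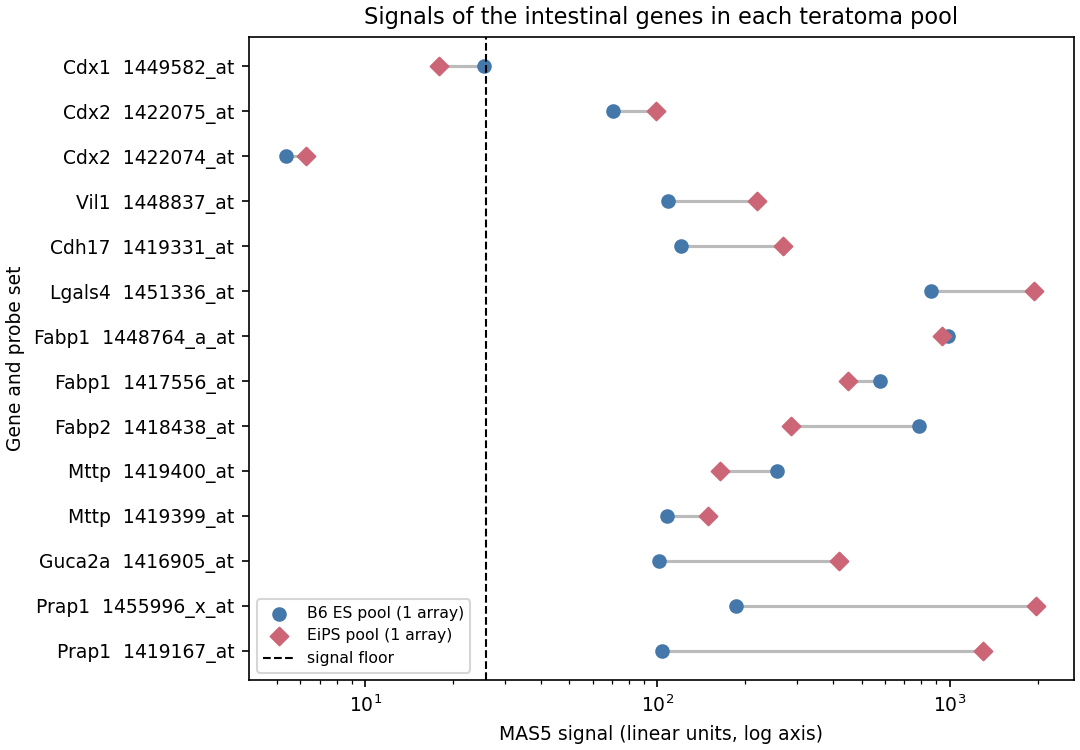
MAS5 signals (log axis) of the 14 probe sets of the intestinal genes in the B6 ES pool (blue circles) and the EiPS pool (red diamonds), 1 array each, with the floor of 25.8 as a dashed line. The longest lines join the Prap1 and Guca2a signals, all higher in the EiPS pool, while Fabp2 runs the other way and Cdx1 and the second Cdx2 probe set lie under the floor on both arrays.

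Of Cdx1 and Cdx2, the homeobox factors that specify intestinal epithelium, Cdx1 was under the floor on both arrays and Cdx2 was measured by 1 of its probe sets. The single Cdx1 probe set read 25.5 in B6 ES tumours and 17.9 in EiPS tumours. Both values are under the floor, the first only just, so no fold is given, and nothing can be said here of whether Cdx1 differed. Cdx2 had 2 probe sets. The brighter read 70.4 in B6 ES tumours and 99.1 in EiPS tumours, a log2 difference of 0.49 that equals 0.99 times the SD between probe sets at this signal. The other read 5.38 and 6.27, under the floor on both arrays. Cdx2 was thus measured by 1 probe set in each pool, and its difference was no larger than this measurement noise.

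Vil1, which encodes the actin-bundling protein villin of the microvillus core, read 109 in B6 ES tumours and 219 in EiPS tumours. Its log2 difference was 1.01, so it lay just past 2-fold. Cdh17, the liver-intestine cadherin that joins intestinal epithelial cells, read 120 and 269, a difference of 1.16. Lgals4 encodes galectin-4, a lectin that organises glycolipid rafts at the brush border. It read 861 and 1953, a difference of 1.18. The EiPS signal was the higher in each of these 3 genes, by 2.49, 2.86 and 4.09 times the SD between probe sets at their signals for Vil1, Cdh17 and Lgals4. Each is measured by a single probe set, so no second reading of the transcript exists on this array. Some mouse strains carry a near-identical copy of Lgals4, which a probe set of this kind could not tell from it.

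Fabp2, the intestinal fatty acid binding protein and the most enterocyte-restricted of the lipid-handling genes, read 784 in B6 ES tumours and 287 in EiPS tumours. Its difference of -1.45 was 3.58 times the SD between probe sets, and 116th from the lowest among all 10962 measured genes. Fabp2 was the only measured member at least 2-fold lower, and it too is measured by a single probe set. Fabp1, the liver-type binding protein that enterocytes also make in quantity, had nearly equal signals of 989 and 944 by its brighter probe set. The second Fabp1 probe set read 576 and 450, a difference of -0.36. Both Fabp1 readings were lower in the EiPS pool, and neither difference reached the SD between probe sets (0.17 and 0.88 times that SD).

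Mttp, the transfer protein that loads lipid onto apolipoprotein B, gave opposite directions. Its brighter probe set read 257 in B6 ES tumours and 164 in EiPS tumours, a difference of -0.65. Its other probe set read 108 and 150, a difference of 0.47. Averaged, the 2 probe sets differed by -0.087, so no direction is given for Mttp. Of the 3 lipid-handling genes, Fabp2 alone was past 2-fold.

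Guca2a and Prap1 encode secreted products. Guca2a is guanylin, a peptide hormone that regulates salt and water transport through guanylate cyclase C, and it read 101 in B6 ES tumours and 418 in EiPS tumours. Its difference of 2.04 was 85th from the highest of all measured genes. Guca2a is measured by a single probe set, so it has no second reading on this array. Prap1, a proline-rich acidic protein secreted by the gut epithelium and by the uterus, read 186 and 1980 by its brighter probe set and 103 and 1298 by the other. The probe sets agreed in direction, with differences of 3.41 and 3.65, and Prap1 ranked 15th from the highest. Its brighter probe set is of a type whose probes can also bind other transcripts, and the other is not. Both genes thus lay far above the noise between probe sets, at 5.04 times its SD for Guca2a and at 8.41 and 9.01 times for the Prap1 probe sets.

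Set against all genes, 5 of the 9 measured members were higher in the EiPS pool by 2-fold or more (Prap1, Guca2a, Lgals4, Cdh17 and Vil1), where 5.79% of all measured genes were. In the other direction Fabp2 makes 1 of 9 at least 2-fold lower, where 3.05% of all measured genes were. All 9 were above the floor on both arrays. Their median difference was 1.01, against 0.067 over all 10962 measured genes. That median is the value of Vil1, and without Prap1 it was 0.75. The members were picked with results of these arrays known, so the counts describe these pools and are not independent evidence of a direction. The lean of all genes depended on scaling: 635 were at least 2-fold higher and 334 lower as deposited, or 65.5% higher, and 491 and 444, or 52.5% higher, after quantile normalization. After that normalization 4 members remained at least 2-fold higher, Vil1 having gone to 0.86 on the log2 scale.

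**Figure D2:**
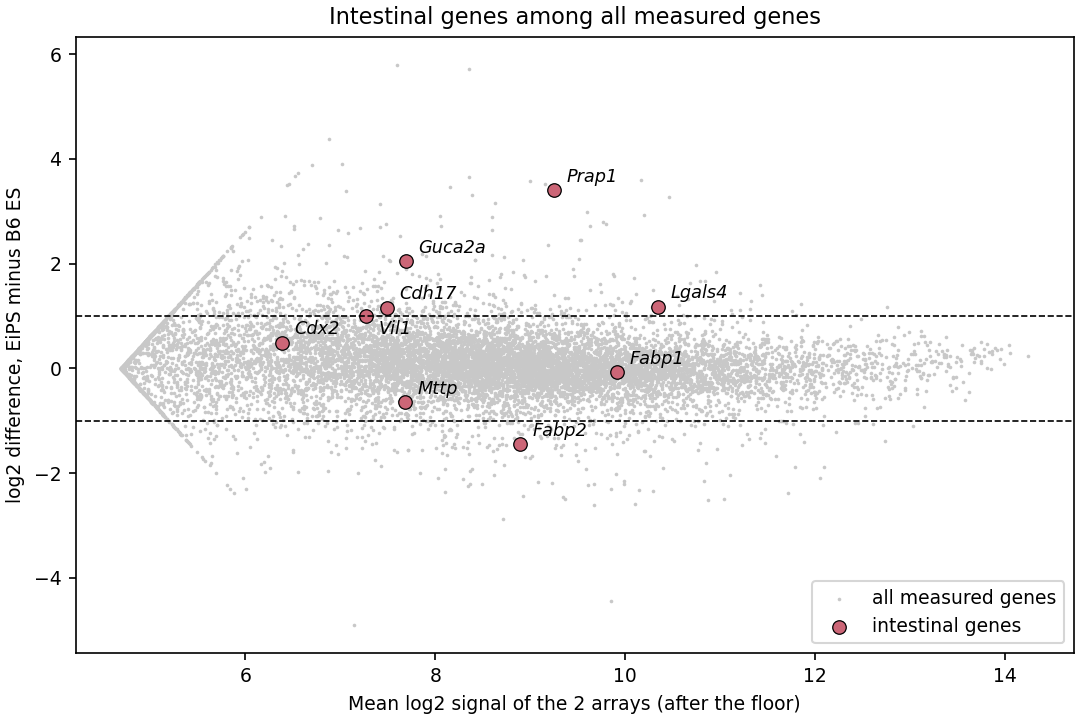
The log2 difference (EiPS minus B6 ES) of every measured gene against its mean log2 signal over the 2 arrays, with the 9 measured intestinal genes named in red and 2-fold marked by dashed lines. Prap1 at 3.41 and Guca2a at 2.04 lie high above the bulk of the genes, Vil1 sits on the 2-fold line, and Fabp2 at -1.45 lies below.

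Other genes of the brush border were higher in the EiPS pool or within 2-fold. Of 12 measured genes of the brush border and its junctions, 5 were higher in the EiPS pool by 2-fold or more and none lower. Over all measured genes, 5.79% were higher and 3.05% lower by 2-fold or more. In the list 8 were higher by any amount, and the median was 0.52 (-0.0041 with a floor of 100, which leaves fewer genes). Cdhr5, a cadherin of the links between microvilli, was 3.29-fold higher (132 and 435). Myo7b, a myosin at the microvillus tips, was 4.19-fold higher but from a signal of 25.9, at the floor, and its partner Ush1c at least 3.14-fold higher (9.70 and 81.2). Cldn15, a claudin of intestinal tight junctions, was 2.73-fold higher. Like Vil1, these 4 genes had the higher signal in the EiPS pool, and each was below the median signal of the array in the B6 ES pool. The fifth gene at 2-fold was Mall, named after its value was seen, at least 2.15-fold higher.

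Of 7 measured digestive hydrolases and peptidases of the brush border, 2 were higher in the EiPS pool by 2-fold or more (5.79% of all measured genes were). Mep1b, a subunit of the metalloprotease meprin, and Lct, the milk-sugar enzyme lactase, were 2.48-fold and 2.15-fold higher in the EiPS pool. Mme (neprilysin) was 1.51-fold higher and Enpep (glutamyl aminopeptidase) 1.57-fold lower, and none was 2-fold lower. The median of 0.096 turned to -0.15 after quantile normalization, to -0.03 with equal medians and to -0.07 after loess scaling. Treh, Tmprss15 and Xpnpep2 were under the floor on both arrays (named after their values were seen).

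Fabp2 and Mttp belong to the route of dietary fat, and none of the listed genes of that route was 2-fold lower, as Fabp2 was. Of 17 measured genes of lipid absorption and lipoprotein assembly, 3 were higher in the EiPS pool by 2-fold or more (5.79% of all measured genes were). Another 6 were lower by less than 2-fold, and the median was 0.19. Mogat2, which resynthesises triglyceride in enterocytes, read 106 and 263 (2.48-fold higher). Abcg5, a sterol exporter, was 2.41-fold higher. Apoa1, a major lipoprotein of gut, liver and yolk sac, was 2.20-fold higher, and its 4 probe sets differed by 1.14 to 1.23. Apob, the protein onto which Mttp loads lipid, was 1.90-fold higher. Liver and yolk sac make several of these proteins as well.

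Transporters and their partners included S100g, which had the largest lower difference of any listed gene above the floor on both arrays. S100g encodes a vitamin D-dependent calcium-binding protein of the enterocyte, a calbindin, and read 2045 in B6 ES tumours and 413 in EiPS tumours, 4.95-fold lower. Trpv6, the apical calcium channel that works with it, read 68.3 and 19.7, at least 2.64-fold lower. By contrast Slc5a1, the sodium-dependent glucose transporter of the brush border, was 3.74-fold higher, with probe set differences of 1.38 and 1.90. Guca2b, or uroguanylin, the paralog of Guca2a, was 1.74-fold higher. Gucy2c, the guanylate cyclase C that receives both peptides, read 47.0 and 43.1 (named after its values were seen). Guanylin thus had a 4.12-fold higher signal in the pool where its receptor had a nearly equal, low signal. Over the 16 measured transporters and ion-handling genes, 1 was higher and 2 lower by 2-fold or more, against 5.79% and 3.05% of all measured genes. Their median of 0.16 was -0.04 after quantile normalization.

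Of 18 measured transcription factors of gut and endoderm, 2 were higher in the EiPS pool by 2-fold or more, where 5.79% of all measured genes were, and none lower. Their median was 0.16, and 0.44 without shared probe sets. Vdr, the vitamin D receptor, was 2.82-fold higher (35.2 and 99.5), opposite in direction to S100g and Trpv6. Hnf4a, a nuclear receptor of gut and liver epithelium, was 2.35-fold higher in its brightest reading, while its 3 probe sets measurable in both pools ranged from -0.53 to 1.23. Foxa2 and Klf4 were 1.77-fold and 1.69-fold higher. Hnf4g and Pdx1 were under the floor on both arrays (named after their values were seen).

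**Figure D3:**
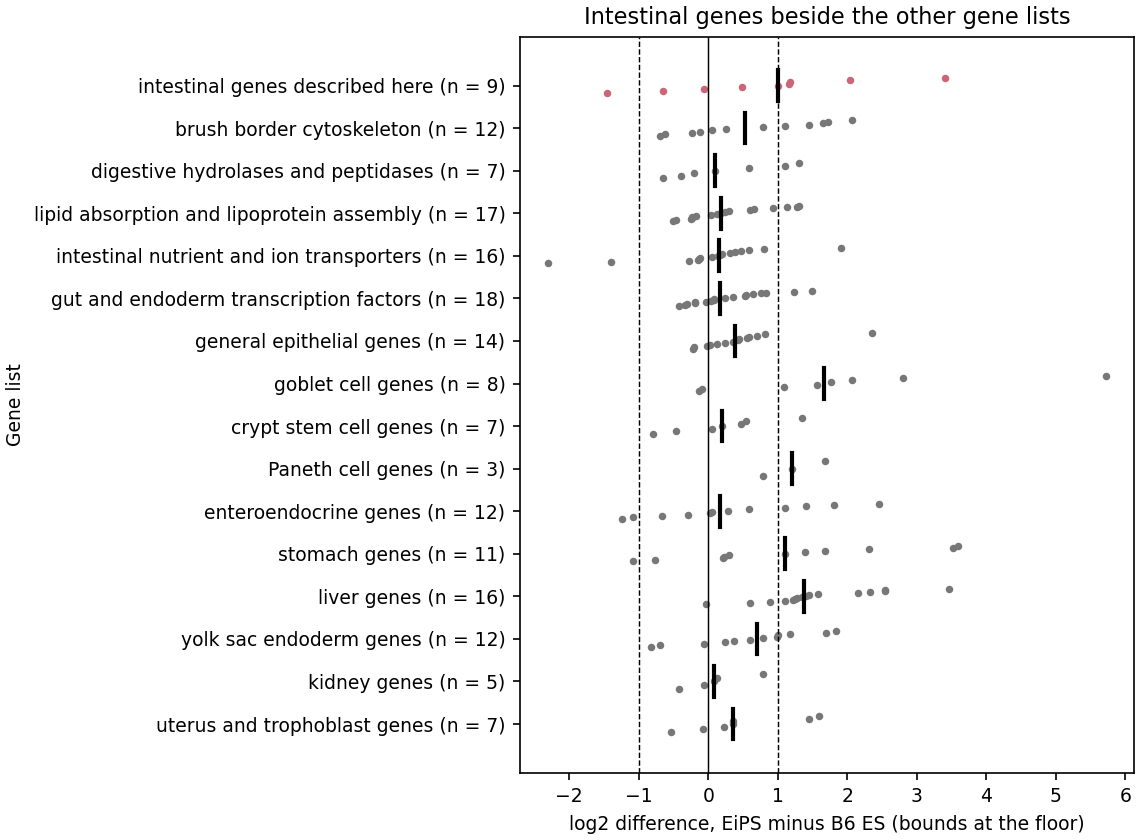
Log2 differences (EiPS minus B6 ES) of the measured genes of each list, a point a gene, with the list's median as a black bar, dashed lines at 2-fold and n the number of genes measured. The intestinal genes (red) spread from -1.45 to 3.41, wider than the transcription factors, and the goblet cell, liver, Paneth cell and stomach lists have medians of 1.67, 1.38, 1.20 and 1.11.

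Goblet cell genes mostly had higher signals in the EiPS pool, while general epithelial genes mostly lay within 2-fold. Both lists stand here beside the 5 members that were at least 2-fold higher. General epithelial genes had a median of 0.39, with 11 of 14 higher but only Krt20, a keratin of mature intestinal cells, at 2-fold (5.13-fold higher). Tspan8 and Cldn7 were 1.76-fold and 1.62-fold higher, and Cldn3 differed by 0.59 on the log2 scale. In the goblet cell list, the mucus-secreting neighbours of enterocytes, 6 of 8 genes were at least 2-fold higher (5.79% of all measured genes were). The median of this list was 1.67. Zg16 was 52.7-fold, Tff3 6.95-fold, Clca1 4.20-fold and Spink4 3.40-fold higher. The 2 goblet cell genes that were not higher were Agr2 (-0.09) and Spdef (-0.14), named after their values were seen. The summed signal of the 8 goblet cell genes was 2102 in B6 ES tumours and 8387 in EiPS tumours. What these other cells contributed to the member signals was not tested.

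Crypt stem cell and endocrine genes lay on both sides of 0, and the 3 measured Paneth cell genes were all higher in the EiPS pool. Of 7 crypt stem cell genes, Cdca7 was 2.54-fold higher, Smoc2 1.73-fold lower, Sox9 1.46-fold and Rnf43 1.39-fold higher, with a median of 0.20. The Paneth cell genes had a median of 1.20 (0.77 with log2(signal + 64)): Mmp7 was 3.20-fold, Itln1 2.30-fold and Lyz1 1.72-fold higher, though Lyz1, also a macrophage gene, had probe sets from -0.04 to 0.78. Of 12 enteroendocrine genes, 4 were higher and 2 lower by 2-fold or more, against 5.79% and 3.05% of all measured genes. The enteroendocrine median was 0.17. Pyy was 5.51-fold, Cck 3.51-fold and Gip at least 2.65-fold higher, and Sst 2.36-fold lower; the others past 2-fold were Sct, higher, and Nts, lower (named after their values were seen).

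Tissues outside the intestine that express some of the 10 genes were read in the same way. Over all measured genes, 5.79% were higher and 3.05% lower by 2-fold or more. Liver genes had 13 of 16 measured members higher in the EiPS pool by 2-fold or more and a median of 1.38 (0.60 with a floor of 100). Of these 16, 8 were above the floor on 1 array only, so their folds are bounds. The summed signal over 17 liver genes was 9845 and 17130. Ttr, which is in the yolk sac list too, made up 87.6% and 76.5% of these sums, which without it were 1216 and 4028. Alb was 10.99-fold, Hp 5.79-fold, Hpx at least 5.82-fold and Serpina1b at least 5.03-fold higher. Fabp1 and Mttp were named above as also active in liver, a list that need not be complete. Fabp1 differed little and the probe sets of Mttp went in opposite directions. Whether liver contributed to these or to any other member signal was not tested. Yolk sac genes had a median of 0.70 with 4 of 12 at least 2-fold higher (Afp 3.58-fold by its brightest probe set and 0.19 to 1.85 on the log2 scale over 4, Rhox5 3.23-fold, Apom at least 2.26-fold and Rbp4 just past 2-fold with signals of 134 and 269), and summed to 11001 and 16708 (2372 and 3606 without Ttr). Stomach genes had a median of 1.11 with 6 of 11 at least 2-fold higher and 1 lower, and summed to 4027 and 11758. Gkn1 was 12.02-fold, Gkn2 11.4-fold, Tff1 3.20-fold and Atp4b at least 4.97-fold higher, and Cblif at least 2.12-fold lower. The stomach median was 0.30 without shared probe sets, a setting that leaves out the brightest probe sets of Gkn1, Gkn2 and Atp4a.

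Kidney, another site of Vil1, gave little signal in either pool: 7 of the 12 kidney genes were under the floor on both arrays, the tubule markers Umod, Slc12a1 and Aqp2 among them (named after their values were seen), and none of the other 5 was past 2-fold in either direction. Lrp2 was 1.73-fold, Slc22a6 1.09-fold and Slc34a1 at least 1.06-fold higher, and Kap 1.34-fold lower. Of 7 measured uterus and trophoblast genes, which bear on Prap1 and Cdx2, Tpbpa was 3.03-fold and Ltf, also a neutrophil gene, 2.72-fold higher. Wnt7a was 1.45-fold lower, the 2 Plet1 probe sets differed in sign (-0.78 and 0.36), and the progesterone receptor gene Pgr was under the floor on both arrays at 16.3 and 15.8. The part of any of these tissues in the member signals was not tested. As a control, the cytoskeletal gene Actb read 10905 and 11923, a difference of 0.13.

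**Figure D4:**
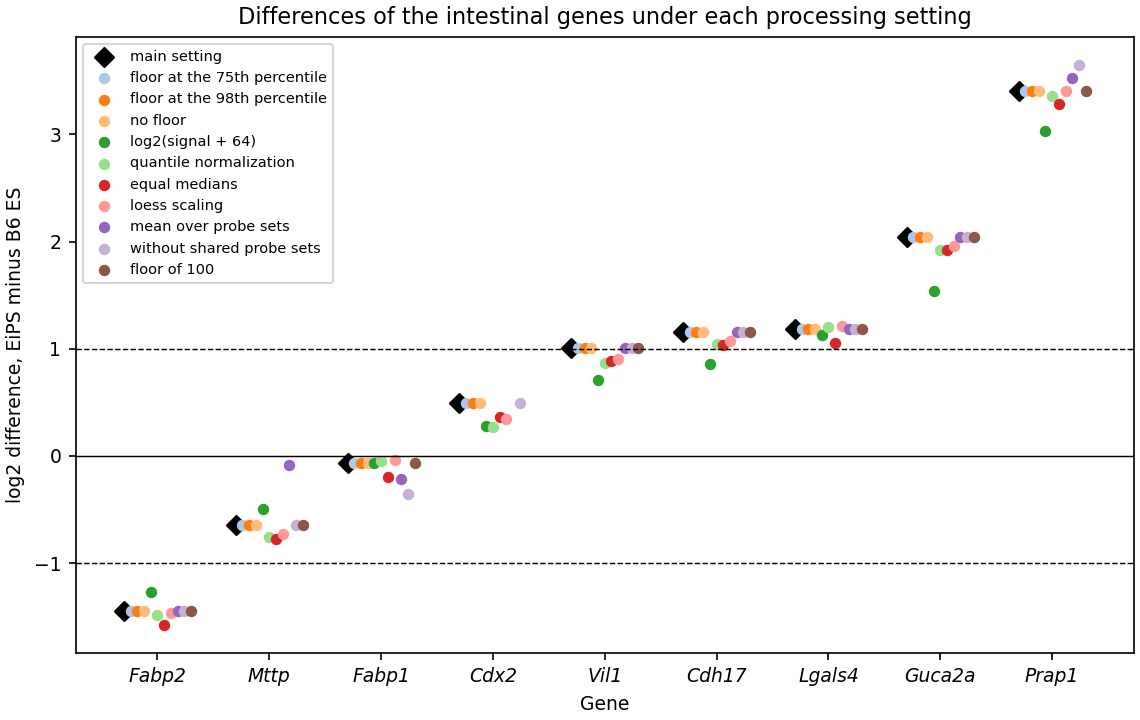
Log2 differences (EiPS minus B6 ES) of the 9 measured intestinal genes under the main setting (black diamonds) and 10 other processing settings (coloured circles), with 2-fold at the dashed lines. Prap1, Guca2a and Lgals4 stay above and Fabp2 stays below 2-fold in all of them, Vil1 and Cdh17 cross the line, and Cdx2 has no point with averaged probe sets or a floor of 100.

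The 9 measured members kept their order wherever they had a value, except that Fabp1 and Mttp changed places with averaged probe sets. Prap1 ran from 3.03 to 3.65, Guca2a from 1.54 to 2.04, Lgals4 from 1.06 to 1.22 and Fabp2 from -1.58 to -1.27. Cdh17 ran from 0.85 to 1.16 and was under 2-fold only with log2(signal + 64). Vil1 ran from 0.71 to 1.01 and was under 2-fold in 4 of 10 alternatives, so its place in the count of 5 rests on the scaling and on the log scale used. No measured member changed direction in the alternatives that gave it a value, and Mttp came nearest to 0 with its probe sets averaged. None of the alternatives read Mttp by its second probe set alone, which differed by 0.47, so its kept sign gives Mttp no direction.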

How the data were processed

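Per the submitters' processing notes, the authors made probe set intensity values with Affymetrix Expression Console and MAS5; their versions and parameters were not given in the sources used here. Per the labels, cRNA came from 5 µg of total RNA of 2 pooled tumours. The deposited intensity values had a 2% trimmed mean of 500.2 on each array, which sets both arrays to 1 level and hides any difference in total RNA. MAS5 subtracts mismatch signal, so low values are noisy. No further scaling was applied.

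Probe sets were named by the platform annotation, updated by Entrez identifier from a RefSeq table (20351 of 20380 with a single symbol matched). Of the others, 64 were controls, 691 had several symbols and 1555 none. Members and 15 other gene lists were chosen with earlier results of these data known. From each list the 4 genes with the largest absolute difference are named, with the largest opposite difference where both directions reached 2-fold. No test was run; the 1 array per group limits the precision. A check on simulated arrays placed known changes in brighter genes only. It does not bear on changes at weak signals or at the floor. Alternatives were other floors (75th and 98th percentile, none), log2(signal + 64), and quantile, equal-median and loess (span 0.4) scaling. Averaged probe sets and no shared probe sets were also used, and a floor of 100 was added later. Probe sets were counted as shared when their names end in _s_at, _x_at or _a_at, which need not mean binding to other genes. Python 3.11.15, pandas 2.3.3 and statsmodels 0.14.6 were used.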

Additional observations from a re-analysis of the deposited data

How the results depend on the processing

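The median difference of the measured intestinal genes (1.01) was 0.49 with log2(signal + 64) and 0.57 after quantile normalization. Under the other 8 alternatives it ran from 0.62 to 1.08 and moved by less than the SD between probe sets (0.40). Part of this comes from Cdx1, which enters the median with the lower floor, no floor, log2(signal + 64) and the 3 scalings, always with the lower signal in the EiPS pool. The number of members with an EiPS signal higher by 2-fold or more (5) was 3 with log2(signal + 64), without Vil1 and Cdh17, and 4 after quantile, equal-median and loess scaling, without Vil1. Fabp2 was the 1 member at least 2-fold lower under all 10 alternatives. No paired analysis was possible because each group has 1 array. Tumour-to-tumour variation, which these pools do not show, limits every value, and signals near the floor (Cdx1, Cdx2, Myo7b) are the least certain.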
